A study of Homo sapiens with 20 samples.

Results

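The genes described here were those whose mRNA was at least 4 times lower in every shDicer sample than in the lowest wild type (wt) sample. They were chosen on the mRNA-seq values themselves: a gene was a member if it reached at least 2 CPM (counts scaled to a common library total) in all 3 wt samples and if each of the 3 shDicer samples lay at or below the lowest wt value divided by 4. This selected 129 of the 57087 genes in the files, or 1.11% of the 11614 genes with at least 2 CPM in wt. The genes AMOT and any host gene of a miRNA with a name of the form MIR..HG were left out by the rule, which removed 2 genes. Because the mRNA values chose the members, they are given as a description with no test. Chromatin-associated RNA (chrRNA-seq), sequenced from other samples, was not used in the choice and was tested.

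HEK293 is a human embryonic kidney cell line, and HEK293T is its derivative carrying the SV40 large T antigen. For mRNA-seq, the wt group was HEK293T and the shDicer group was the line HEK293 2B with an shRNA against Dicer, and both received 3 µg/ml doxycycline for 7 days (n = 3 each). For chrRNA-seq, 2 samples each of HEK293 control, shDicer, shAgo2 and shDrosha cells were sequenced, the shDicer and shAgo2 lines after 72 h of 3 µg/ml doxycycline and the shDrosha cells after transfection of shRNA plasmids, with no treatment named for the control. In the study's methods the knockdown lines were recombinant HEK293T-REx cells with integrated inducible cassettes, and clone 1.3 carried TAP-tagged Dicer alongside the shRNA. The mRNA-seq shDicer and wt groups therefore differed in line as well as in knockdown. The shDicer and shAgo2 chromatin groups differed from their control in the same way, so line and knockdown cannot be told apart in those comparisons. In chrRNA-seq, doxycycline is named only for the shDicer and shAgo2 lines. Its effect cannot be told apart there either, whether they are set against the control or against shDrosha. For the shDrosha transfection the methods name both wt and recombinant cells, and which of them was sequenced is not given in the sources used here. The labels call the mRNA-seq libraries polyA RNA, whereas the methods describe ribosomal depletion. Nothing in the labels says that replicates came from separate cultures, so p-values measure the spread between these samples, which may be technical.

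Dicer cuts precursor RNAs into miRNAs and other small RNAs, Ago2 binds such small RNAs and acts with them on target RNAs, and Drosha makes the miRNA precursors in the nucleus. A miRNA lowers the stability and translation of the mRNAs it pairs with. Chromatin-associated RNA is rich in RNA still being transcribed, while mRNA-seq of whole cells reads mostly mature, processed transcripts. Side by side, the assays show whether a gene with little mRNA also had little chromatin RNA in other samples. They are no matched pair, since induction lasted 7 days for mRNA-seq and 72 h for the inducible lines in chrRNA-seq. What lies behind a gene at which the assays disagree was not tested.

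Totals were 10216430 to 17215978 estimated counts per mRNA-seq sample and 17484067 to 21553760 per chrRNA-seq sample, and 93.4 to 94.8% of the counts belonged to transcripts with a known gene. DICER1 mRNA stood at 235, 244 and 221 CPM in wt and at 75, 87 and 86.1 CPM in shDicer. In chromatin RNA, DICER1 did not pass the test in the libraries labelled shDicer (log2 fold change -0.17 ± 0.0934 SE, adjusted p = 0.166), and DROSHA did not in those labelled shDrosha (0.07 ± 0.0795, adjusted p = 0.697). AGO2 was lower in shAgo2 (-0.62 ± 0.0832, adjusted p = 9.33e-05), and DICER1 was higher there (0.78 ± 0.0926, adjusted p = 3.6e-05). Chromatin RNA is not a measure of mature mRNA or protein. The paper gives qRT-PCR of steady-state Drosha, Dicer and Ago2 RNA from the samples used for chrRNA-seq. It also gives western blots that it describes as showing successful knockdown of all 3. Epithelial markers (CDH1, EPCAM, KRT8, KRT18 and KRT19, 5 genes) summed to 37.2 to 42.9 CPM in wt mRNA and to 308 to 327 CPM in shDicer mRNA, with KRT19 at 0 in wt. EPCAM took 1.43 to 2.05 CPM of the wt sum and 145 to 176 CPM of the shDicer sum. CDH1 overlapped between the groups, at 1.09 to 2.2 CPM in wt and 0.328 to 5.51 in shDicer. The chromatin sums of these 5 genes were 61.9 to 66 in wt, 190 to 205 in shDicer, 167 to 168 in shAgo2 and 60.9 to 62.6 in shDrosha, again with KRT19 at 0 in wt. Markers of embryonic kidney and HEK293 cells (10 genes) summed to 485 to 583 CPM in wt and 783 to 1177 CPM in shDicer mRNA, of which NEFL took 13.1 to 17.6 and 286 to 704 CPM, with PAX2 near the floor of 3 counts in both. Fibroblast markers (5 genes) summed to 1.22 to 1.93 CPM in wt and 1.2 to 1.55 in shDicer mRNA, and blood markers (5 genes) to 0.395 to 0.886 and 8.78 to 11.9, of which HBB took 8.38 to 11.6, while liver markers (3 genes) stayed at or below 2.04 CPM in every sample. In chromatin the HEK293 list summed to 635 to 691 CPM in wt, 426 to 558 in shDicer, 407 to 432 in shAgo2 and 398 to 467 in shDrosha, the fibroblast list to 31.2 to 32.5, 36.3 to 38.9, 43.6 to 45.9 and 31.4 to 33.9, and the blood list to 8.52 to 8.94, 2.85 to 3.92, 4.31 to 4.35 and 7.98 to 9.55. Within the HEK293 list, VIM read 473 and 519 CPM in wt, 152 and 207 in shDicer and 203 and 236 in shAgo2. VIM read 328 and 258 in shDrosha. NEFL went the other way, at 12.1 and 9.9 in wt, 119 and 181 in shDicer and 84.3 and 85 in shAgo2. The part of these marker differences in the members' values was not tested.

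The members ranged from 2.23 to 304 CPM in wt mRNA, with a median of 8.87 CPM. A median of 4.47% of the wt level was left in shDicer cells, and the share left ran from 0 to 23.8%. In 33 members each of the 3 shDicer samples was under the floor of 3 counts (0.174 to 0.219 CPM, counting error only), and 9 members had 0 counts in all 3. By annotation, 106 members were protein-coding, 18 were long noncoding RNA (lncRNA) genes and 5 were pseudogenes. In a bulk sample, fewer cells that express a gene and less of its RNA per cell cannot be told apart.

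The members with the most counts included the linker histone gene H1-3, at 300, 304 and 295 CPM in wt and 71.4, 72.4 and 70.2 CPM in shDicer. RPL22L1, a paralog of a ribosomal protein, stood at 272, 307 and 334 CPM in wt and at 23, 25.5 and 25.6 in shDicer. PCDH9, a protocadherin of neural cell contacts, stood at 258, 241 and 298 CPM and then at 29.6, 30.6 and 36.7. In all 3 genes the samples of each group lay close together. Under 1% was left of H3C1, a core histone H3 gene with 92.7, 88 and 80.9 CPM in wt and 0.292, 0.349 and 0.116 in shDicer, and of SNAI2, which encodes the repressor Slug, with 33.5, 34.7 and 38.4 CPM in wt and 0.0729, 0 and 0.0581 in shDicer. The same held for SPARC, a secreted collagen-binding glycoprotein with 36.8, 34.3 and 39.8 CPM in wt and 0.0729, 0.139 and 0.0581 in shDicer. The shDicer values of the last 2 genes were all below the floor of 3 counts.

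**Figure D1:**
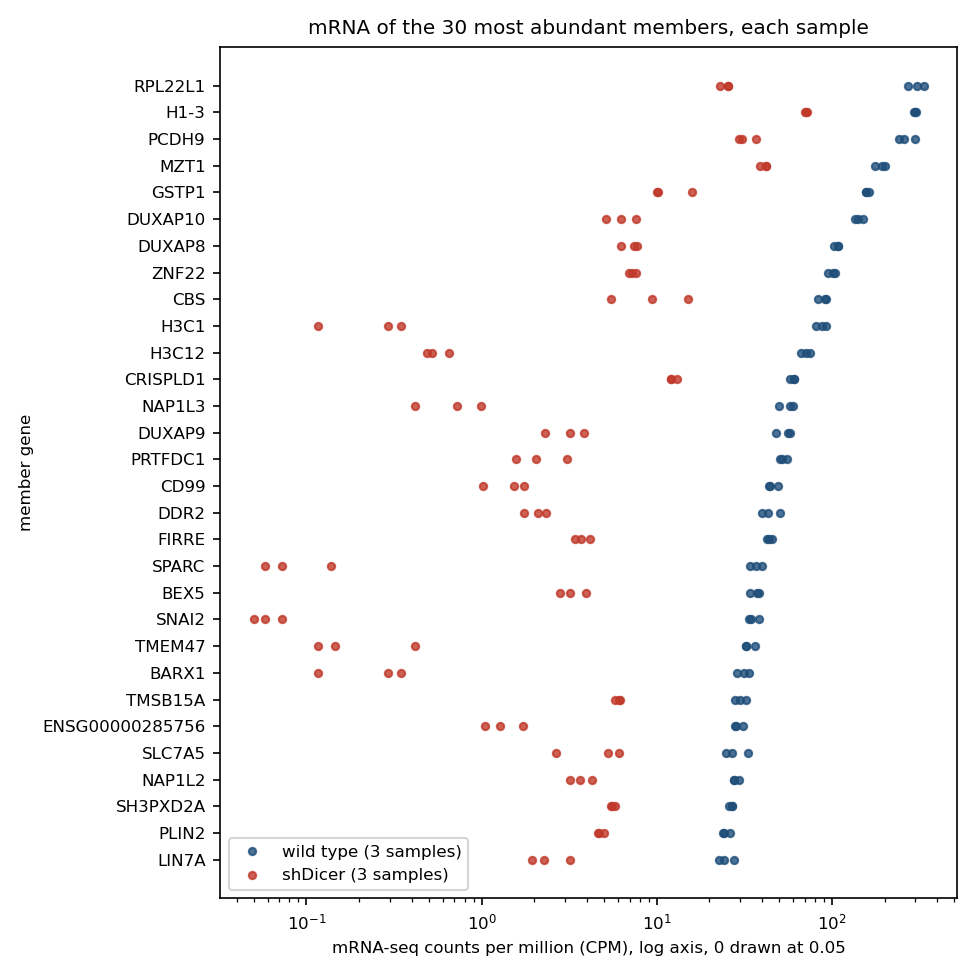
mRNA-seq CPM (log axis, 0 drawn at 0.05) of the 30 members with the most wt counts, with 3 wt samples in blue and 3 shDicer samples in red. The samples of a group cluster while the groups are apart, from H1-3 with 23.8% left at the top to genes such as SPARC, SNAI2 and H3C1 with under 1% left.

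Just inside the threshold, where the highest shDicer value divided by the lowest wt value was nearest to the limit, lay H1-3 (0.245), SLC7A5 (0.245), KLF5 (0.242), LINC00649 (0.24) and MZT1 (0.238). Just outside lay SP9 (0.251), CPS1 (0.254), HAS2 (0.256), ANXA1 (0.256) and DIS3 (0.257).

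In chromatin RNA, 128 of the 129 members passed the filter on low counts and were tested. POSTN, the gene of the matrix protein periostin, was not, with 0 in both wt libraries. Of the tested members, 21 passed the filter only through wt or shDrosha libraries, since 107 members would pass it on the shDicer and shAgo2 libraries alone. The 21 were TNMD, SNAI2, STS, FZD10, SPARC, BARX1, RAMP1, GYPC, HORMAD1, TMEM47, DUSP2, KCNT2, HDX, SLC7A3, LRFN5, CTSF, BEX5, H3C12, RING1, ENSG00000180015 and ENSG00000254701. For these 21 the filter itself favours a lower value in shDicer and shAgo2. The counts and medians below include them and were not computed without them. BCHE passed only through shDicer and shAgo2 libraries, so for it the filter favours a higher value there. In shDicer, 108 members were lower than wt and 2, BCHE and SLC8A1, were higher at an adjusted p under 0.005 (edgeR), where 10.5% of all 32874 genes tested were lower and 11% were higher. Over the 17 ways of processing tried (other tools, filters, scalings or a sample left out), the call of BCHE held in 9 and that of SLC8A1 in all 17. The median log2 fold change was -2.11 over the members (quartiles -3.71 and -1.09) and 0.01 over all genes. In shAgo2, 97 members were lower and 4 (SLC8A1, LIN7A, BCHE and PI15) higher, against 12.1% and 12.5% of all genes, with a member median of -1.80 (quartiles -3.16 and -0.71) and 0.00 over all genes. In shDrosha, 5 members were lower and 5 higher at an adjusted p under 0.05, against 2.18% and 1.2% of all genes, with medians of -0.02 and 0.00.

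Most members thus also had less chromatin RNA in shDicer and shAgo2 libraries, and most did not pass the test in shDrosha libraries. Both shDicer samples lay below both wt samples in 121 members, above them in 4 and overlapped in 4, while of all genes tested 30.3% lay below and 37.6% above. For shAgo2 these numbers were 114, 10 and 5 (all genes 33.7% below and 39.1% above), and for shDrosha they were 33, 33 and 63 (17.7% and 30.4%). The median member kept 23.8% of its wt chromatin level in shDicer, 29.6% in shAgo2 and 102% in shDrosha. The shDicer, shAgo2 and shDrosha contrasts share the same 2 wt samples. The knockdowns were therefore also set against each other directly. Both contrasts against shDrosha share the same 2 shDrosha samples, and in them doxycycline and the way the shRNA was delivered differ along with the knockdown. Against shDrosha, 107 members were lower and 1 was higher in shDicer (all genes 9.51% and 11%), with a median of -2.02. Against shDrosha, 98 members were lower and 4 higher in shAgo2 (10.3% and 11.6%), with a median of -1.74.

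**Figure D2:**
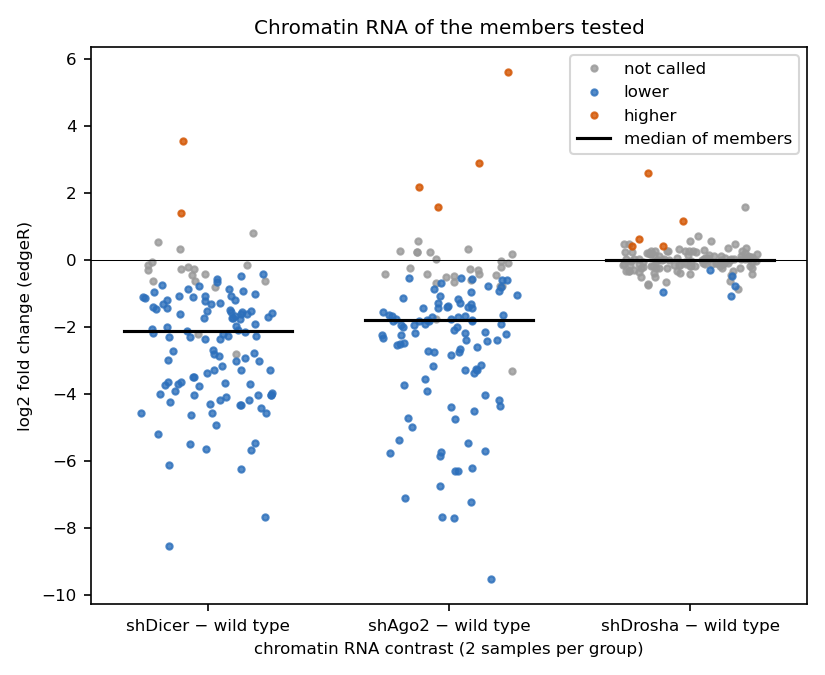
log2 fold change (edgeR) of chromatin RNA for the 128 members tested, each point a member, in 3 contrasts against the same 2 wt samples, with calls coloured and a black line at the member median. The points sit mostly below 0 in shDicer (median -2.11) and shAgo2 (-1.80) and around 0 in shDrosha (-0.02).

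The members fell into 15 groups by what their products do, a grouping drawn up after their values were seen. In these groups RNA levels are CPM, which are not corrected for gene length, and are compared only within a gene. Members named beyond the 30 with the highest wt counts, the extremes, the neighbours and the threshold genes were picked after their values were seen.

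Genes of the extracellular matrix, proteases and their inhibitors numbered 10, and 5 of the 9 tested were lower in shDicer, 5 were lower and 1 higher in shAgo2, and none was lower and 1 higher in shDrosha. PXDN encodes peroxidasin, which cross-links collagen IV in basement membranes. Its mRNA was 16.1, 17.8 and 18.8 CPM in wt and at most 0.139 CPM in shDicer, and its chromatin RNA was 106 and 111 CPM in wt, 5.18 and 4.29 in shDicer, 78.6 and 72 in shAgo2 and 102 and 93 in shDrosha. The shDicer libraries stood far below all others, and shAgo2 was lower than wt by a smaller step (-0.56 ± 0.0929 SE, adjusted p = 0.000457). MMP16, a membrane-bound metalloproteinase, read 9.99 and 10.8 CPM in wt chromatin, 0.608 and 0.684 in shDicer, 0.139 and 0.254 in shAgo2 and 12.8 and 12.9 in shDrosha. CTSF, the lysosomal protease cathepsin F, read 11.3 and 11.3 in wt, 0.152 and 0.342 in shDicer, 0.0928 and 0 in shAgo2 and 9.55 and 10.1 in shDrosha. SPARC was also lower in both lines, with 4.66 and 4.69 CPM in wt, 0.355 and 0.244 in shDicer and 0.139 and 0.153 in shAgo2, as was CRISPLD1. SERPINF1, which encodes pigment epithelium-derived factor, kept 1.63% of its mRNA but read 19.6 and 18.8 CPM in wt chromatin and 17.5 and 14.9 in shDicer, and its change missed the threshold (-0.29 ± 0.0993, adjusted p = 0.0373).

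All 10 members of adhesion and the cell surface were lower in shDicer chromatin and 8 were lower in shAgo2, with medians of -2.54 and -1.67, and none was called in shDrosha. CD99, a surface glycoprotein of leukocyte and tumour cells, read 40.6 and 40.7 CPM in wt, 6.19 and 6.55 in shDicer, 6.59 and 5.64 in shAgo2 and 38.5 and 41.6 in shDrosha, so that both inducible lines lay apart from wt and shDrosha. TMEM47, a membrane protein of cell junctions, read 4.39 and 3.77 in wt, 0.253 and 0.249 in shDicer and 0.0928 and 0.0509 in shAgo2. GYPC, an erythroid glycophorin, read 4.89 and 3.63, then 0.152 and 0.299, then 0.0928 and 0.0509 CPM in the same order. The group held 4 protocadherins, homophilic adhesion proteins of neural tissue. PCDH9 was lower by a moderate step in both lines (119 and 114 CPM in wt, 54.5 and 62.6 in shDicer, 66.7 and 58.3 in shAgo2), and PCDH17 was lower in both, while PCDH10 and PCDH20 passed in shDicer only at the thresholds used. For PCDH10 and PCDH20 the direct difference between shDicer and shAgo2 was not called (adjusted p = 0.155 and 0.00619), and 90.6% of the PCDH20 sequence is shared with other transcripts, so its counts are uncertain.

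Among the 16 members of the cytoskeleton and of trafficking, 12 were lower in shDicer and 12 lower with 1 higher in shAgo2. FLNC encodes filamin C, an actin cross-linker of muscle. It read 144 and 151 CPM in wt chromatin, 6.08 and 6.26 in shDicer, 40.5 and 30.3 in shAgo2 and 129 and 96.9 in shDrosha, so that shAgo2 lay between wt and shDicer. SH3PXD2A, a scaffold of invadopodia, kept an mRNA share of 21.2% and read 195 and 190 CPM in wt, 64.5 and 60.5 in shDicer and 52.7 and 50.3 in shAgo2. BIN1, which bends membranes, read 14.4 and 12.9, then 3.3 and 3.28, then 3.15 and 2.34. NEFM, a neurofilament subunit that is also on the HEK293 marker list, was lower in all 3 knockdowns, at 22.3 and 22.5 CPM in wt, 2.25 and 2.51 in shDicer, 1.12 and 0.622 in shAgo2 and 10.7 and 11.4 in shDrosha. TMSB15A, a thymosin that binds actin monomers, had 29.9, 32.3 and 28.1 CPM of wt mRNA but only 1 and 1.12 CPM of chromatin RNA, where no difference was detectable (adjusted p = 0.23).

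Of 16 transcription factors and cofactors, 13 were lower in shDicer, 12 in shAgo2 and 1 in shDrosha. BARX1, a homeobox factor of jaw and stomach development, was among the 5 lowest of all members in shDicer chromatin, at 15.1 and 13 CPM in wt, 0.101 and 0.293 in shDicer, 0.139 and 0.0509 in shAgo2 and 7.94 and 8.94 in shDrosha. BARX1 passed the low-count filter only through wt or shDrosha libraries. It was the only member of the group lower in shDrosha (-0.79 ± 0.146 SE, adjusted p = 0.0153). SNAI2 read 6.97 and 6.46 CPM in wt, 0.304 and 0.44 in shDicer, 0.464 and 0.712 in shAgo2 and 10.1 and 9.2 in shDrosha. ZNF22, a zinc-finger protein, read 5.07 and 6.85, then 0.662 and 0.695 in shDicer and 2.1 and 1.34 in shAgo2. HDX, an X-linked homeobox gene, read 9.93 and 9.72 CPM in wt, 0.101 and 0.342 in shDicer, 0.0928 and 0.153 in shAgo2 and 11 and 10.8 in shDrosha. Its wt and shDrosha libraries were high and the other 4 were low. STAT6, the mediator of interleukin-4 signals, fell less, from 48.6 and 43.1 CPM to 14.7 and 16.7 in shDicer and to 15 and 14.2 in shAgo2. KLF5, a factor of epithelial growth, was at 9.88 and 10.2 in wt, 4.16 and 4.2 in shDicer and 4.87 and 5.59 in shAgo2, lower in both. LDB2, RORB and HNF4G were not called in either line.

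The 3 histone members were lower in chromatin of both lines. H3C1 read 14 and 15.8 CPM in wt, 0.862 and 1.47 in shDicer and 1.9 and 1.22 in shAgo2, H3C12 read 7.82 and 8.23, then 0.152 and 0.746, then 0.0464 and 0.0509, and H1-3 read 32.1 and 34.3, then 12.6 and 18.6, then 14.3 and 18.4. The call of H1-3 held in 10 of the 17 ways of processing in shDicer and in 9 in shAgo2. Replication histone mRNAs have no poly(A) tail, so their level in an mRNA library depends on how it was made, which labels and methods describe differently here. H3C12 was also lower in shDrosha (-0.97 ± 0.226, adjusted p = 0.0401), and 38.2% of its 31-base subsequences also occur in transcripts of other genes. Of the 4 genes of RNA binding and the ribosome, all were lower in shDicer and 3 in shAgo2. RPL22L1 fell only from 33.2 and 34.5 CPM in wt to 21.3 and 22.8 in shDicer (-0.66 ± 0.149, adjusted p = 0.004), although 8.11% of its mRNA was left. This call held in 7 of the 17 ways of processing. NOVA1, a splicing regulator of neurons, read 12.8 and 10.6 in wt, 2.67 and 4.46 in shDicer and 3.13 and 3.03 in shAgo2.

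Of the 15 metabolic genes, 13 were lower and 1 higher in shDicer, and 11 were lower and 1 higher in shAgo2. GSTP1, a glutathione transferase that detoxifies electrophiles, had 156, 157 and 164 CPM of wt mRNA against 16, 10.2 and 10.1 in shDicer. Its chromatin RNA read 38.7 and 34.3 CPM in wt, 3.04 and 2.49 in shDicer, 10.1 and 12.1 in shAgo2 and 31 and 21.7 in shDrosha. CBS, which starts the conversion of homocysteine to cysteine, read 485 and 440 CPM in wt chromatin, 120 and 117 in shDicer, 75.2 and 67.8 in shAgo2 and 370 and 466 in shDrosha, with 35.5% of its sequence shared with other transcripts. The purine-salvage paralog PRTFDC1 read 16 and 17.3, then 0.659 and 1.03, then 1.62 and 1.91, in wt, shDicer and shAgo2. PLTP, the phospholipid transfer protein of plasma lipoproteins, read 47.4 and 47.9, then 4.23 and 4.38, then 3.92 and 3.37. PLIN2, which coats lipid droplets, fell less, from 26.8 and 28.4 to 13.3 and 13.7 and to 10.3 and 11.6. In each of these genes both inducible lines lay below wt without overlap.

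Among 8 transporters and channels, 7 were lower and 1 higher in each of shDicer and shAgo2, and 1 was lower and 2 higher in shDrosha. KCNT2, a sodium-activated potassium channel, was one of the 5 lowest members, at 9.16 and 10.4 CPM in wt chromatin, 0.152 and 0.0978 in shDicer, 0.557 and 0.305 in shAgo2 and 10.9 and 9.63 in shDrosha. It passed the low-count filter only through wt or shDrosha libraries. ABCA1, the exporter of cholesterol to lipoproteins, went in opposite directions between knockdowns, with 9.99 and 11 CPM in wt, 1.37 and 1.32 in shDicer, 0.928 and 1.12 in shAgo2 and 26.2 and 21.4 in shDrosha. SLC13A3, a carrier of dicarboxylates, read 19.5 and 19.2 in wt, 4.49 and 4.06 in shDicer, 4.77 and 3.58 in shAgo2 and 30.2 and 30.9 in shDrosha. SLC7A5, the large neutral amino acid carrier, was lower in all 3, at 83.6 and 78.4 in wt, 26.5 and 22.8 in shDicer, 22.8 and 24.8 in shAgo2 and 54.7 and 64.9 in shDrosha. The 7 signalling genes were lower in both inducible lines and uncalled in shDrosha. They included DDR2, a collagen-binding receptor kinase (12.6 and 13.2 CPM in wt, 4.41 and 4.6 in shDicer, 3.25 and 3.25 in shAgo2), and DUSP2, a phosphatase of MAP kinases (5.71 and 6.52, then 0.304 and 0.0978, then 0.0464 and 0.102).

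Of 3 genes of the germ line and early development, DMC1, a meiotic recombinase, and TRIM71, a stem cell ubiquitin ligase, were lower in both lines, while HORMAD1, a meiotic chromosome protein, was too low in chromatin to be called. TRIM71 read 22.6 and 22 CPM in wt chromatin, 3.35 and 2.69 in shDicer and 5.8 and 7.07 in shAgo2. Of 3 further X-linked genes, NAP1L3 and NAP1L2, both intronless relatives of a histone chaperone, were lower in shDicer, and NAP1L3 also in shAgo2. NAP1L3 had 60.2, 57.9 and 49.8 CPM of wt mRNA and 4.5 and 5.03 CPM of chromatin RNA, against 0.71 and 0.684 in shDicer and 0.742 and 0.915 in shAgo2 chromatin. BEX5, a brain-expressed X-linked gene, had 37.5, 38.5 and 34.1 CPM of wt mRNA and 3.94, 3.21 and 2.79 in shDicer, but only 1.59 and 0.858 CPM of wt chromatin RNA, and was not called (adjusted p = 0.0139).

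Noncoding members showed the same kind of result, with 16 of 18 lncRNAs lower in shDicer, 14 in shAgo2 and none in shDrosha, and all 5 pseudogenes lower in both lines. ENSG00000277693, an lncRNA of chromosome 21 that was among the 5 lowest, read 40.3 and 36.5 CPM in wt, 0.654 and 0.887 in shDicer, 2.05 and 1.62 in shAgo2 and 47.2 and 46.8 in shDrosha. FIRRE, an X-linked nuclear lncRNA that organises chromatin contacts, was lower in shDicer (19.6 and 17.1 CPM in wt, 9.16 and 8.47 in shDicer) but read 16.9 and 14.8 in shAgo2. The DUXAP loci are pseudogene and lncRNA copies of a double homeobox gene and had high counts: DUXAP10 read 537 and 487 CPM in wt chromatin, 52.3 and 41.7 in shDicer, 101 and 96.8 in shAgo2 and 423 and 512 in shDrosha, and DUXAP8 read 168 and 159, then 26.3 and 26.2, then 53.3 and 48.5, then 171 and 178. DUXAP9 and ENSG00000272872 ran in the same order. Between 63 and 95.5% of their 31-base subsequences occur in transcripts of other genes, so the split of reads between these copies is uncertain.

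In all, 10 members shared over 50% of their 31-base subsequences with other genes and are uncertain for that reason. They are DUXAP8, DUXAP9, DUXAP10, ENSG00000272872, NBEAP3, ENSG00000180015, ENSG00000254701, PCDH20 and the overlapping pair KIAA0408 and ENSG00000255330. In 2 of them a group had no count. ENSG00000180015 was at 0 in both shDicer chromatin libraries, at least 15.7-fold lower than wt given a floor of 3 counts per library. ENSG00000254701 was at 0 in both inducible lines, at least 8.69-fold lower in shDicer and at least 8.9-fold lower in shAgo2. Both were among the 5 lowest members by fitted fold change, which is no bound.

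In a minority of members chromatin RNA was not called lower in shDicer. The mRNA and chromatin samples were separate and differed in induction time, and the part of this in such genes was not tested. SLC8A1, the sodium-calcium exchanger of heart, had 11.7, 11.9 and 14.4 CPM of wt mRNA and 1.82, 1.6 and 2.15 in shDicer, but its chromatin RNA was 2.69 and 2.72 CPM in wt, 6.93 and 7.56 in shDicer, 21.4 and 19.5 in shAgo2 and 2.64 and 2.93 in shDrosha. It was therefore higher in shDicer (1.38 ± 0.152, adjusted p = 2.44e-05) and in shAgo2 (2.87 ± 0.136, adjusted p = 2.04e-08), opposite to its mRNA. BCHE, butyrylcholinesterase, was nearly absent from wt chromatin, with 0 and 0.114 CPM, and read 0.76 and 0.733 in shDicer and 3.2 and 2.95 in shAgo2, so its wt mRNA of 4.55, 6.31 and 6.07 CPM had almost no chromatin counterpart. LIN7A, a polarity scaffold, had 24.1, 22.7 and 27.7 CPM of wt mRNA and 1.32 and 0.744 CPM of wt chromatin RNA, with 1.06 and 1.61 in shDicer and 4.69 and 4.95 in shAgo2. PI15, a secreted protease inhibitor, read 3.13 and 2.23 CPM in wt, 5.02 and 4.69 in shDicer and 8.86 and 7.37 in shAgo2, higher only in shAgo2 at the threshold used, and its shDicer minus shAgo2 difference did not pass (adjusted p = 0.0113).

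CAV3, the muscle caveolin, had 2.73, 2.27 and 2.25 CPM of wt mRNA and 0 in every shDicer sample, while its chromatin RNA read 8.07 and 7.21 CPM in wt and 10.5 and 12 in shDicer, a difference just above the threshold (0.52 ± 0.127, adjusted p = 0.00637). GSTM2, a glutathione transferase with 17.4% of its sequence shared, read 82.8 and 88.1 in wt and 72.3 and 73.6 in shDicer chromatin. TMEM220, a membrane protein, read 11.5 and 11.4 in wt and 11 and 10.4 in shDicer, and LINC01234 read 14.2 and 13 and then 12.3 and 11.9. None of these 4 was called in shDicer, although in GSTM2, TMEM220 and LINC01234 both shDicer samples lay below both wt samples. The transcript that held most of a gene's counts was the same in wt mRNA and wt chromatin RNA for 84 members and another for 44, and SLC8A1, SERPINF1 and GSTM2 were among the latter. Its part in these results was not tested.

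Where the inducible lines differed, the direct test put 22 members lower and 3 higher in shDicer than in shAgo2, against 1.34% and 1.37% of all genes, and the median difference over the members was -0.06. PXDN differed most, with a log2 difference of -4.00 ± 0.123 SE (adjusted p = 4.41e-09). HAND1, a factor of heart and trophoblast development, read 6.64 and 5.15 CPM in wt, 0.558 and 0.391 in shDicer, 3.8 and 3.76 in shAgo2 and 6.79 and 6.31 in shDrosha, a difference of -2.99 ± 0.269 (adjusted p = 6.03e-05). FLNC differed by -2.53 ± 0.198 (adjusted p = 2.39e-05) and GSTP1 by -2.01 ± 0.234 (adjusted p = 0.000408), in both cases with shAgo2 between shDicer and wt. NAP1L2 read 5.76 and 6.52 in wt, 0.406 and 1.12 in shDicer, 4.13 and 3.1 in shAgo2 and 6.32 and 5.24 in shDrosha (-2.23 ± 0.344, adjusted p = 0.00211). The lncRNA ENSG00000269902 read 9.99 and 9.84 in wt, 1.77 and 1.17 in shDicer and 8.44 and 8.19 in shAgo2 (-2.50 ± 0.183, adjusted p = 1.39e-05). In these last 2 and in HAND1 the shAgo2 level was not called different from wt.

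The members higher in shDicer than in shAgo2 were NEFM (1.42 ± 0.252, adjusted p = 0.0045), CACNA1H, a T-type calcium channel (0.86 ± 0.143, adjusted p = 0.00322), and CBS (0.72 ± 0.0947, adjusted p = 0.000784), and all 3 were below wt in both lines. These 3 calls held in 6, 5 and 12 of 17 settings, and those of PXDN, HAND1, FLNC and ENSG00000269902 in all 17, of GSTP1 in 15 and of NAP1L2 in 10. For the other 103 tested members the difference between the inducible lines was not called, which does not show that they were alike. Without either one of the shAgo2 samples, 10 members were called different between the lines.

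**Figure D3:**
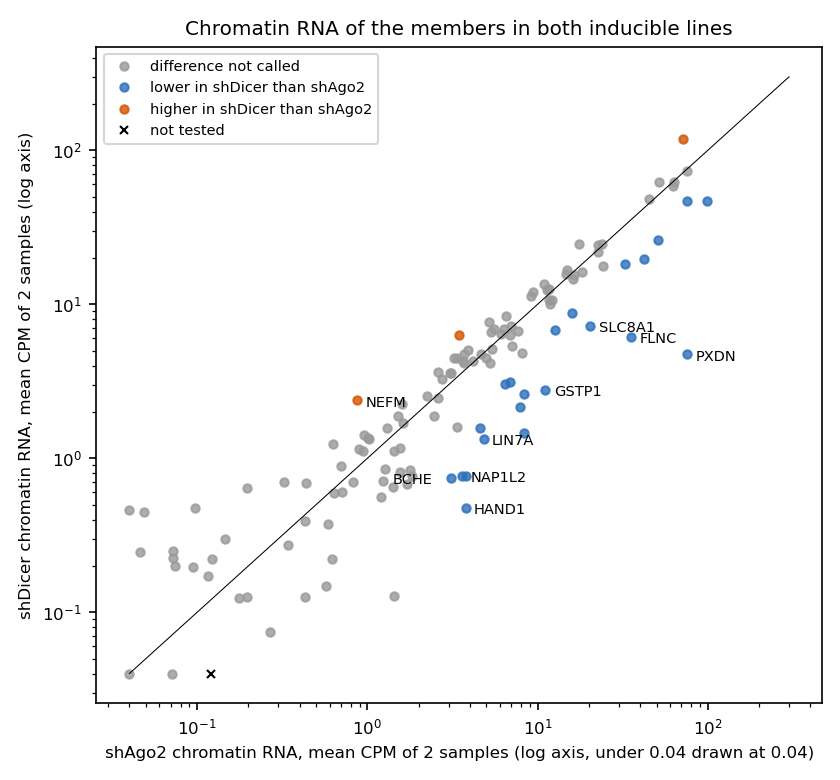
Mean chromatin CPM of 2 samples (log axes, values under 0.04 drawn at 0.04) of every member in shAgo2 (horizontal) and shDicer (vertical), with the line of equal values and the called differences coloured. PXDN, HAND1, FLNC and NAP1L2 lie well below the line, NEFM lies above it, and most members lie near it.

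The members were unevenly spread over the genome. Chromosome X held 23 of them, 17.8% of the members, whereas 3.56% of the genes with at least 2 CPM in wt mRNA are on X, so that 5.56% of the expressed X-linked genes were members. The next shares were 3.76% on chromosome 13 (8 members), 2.86% on chromosome 21 (4) and 2.17% on chromosome 6 (13), and chromosome 19 had 1 member, or 0.145%. Genes that are no members were also lower in chromatin more often on X, at 17% in shDicer and 19.6% in shAgo2, against 10.3% and 11.8% of non-member genes in the genome. On chromosome 21 these shares were 12.4% and 26.2%, on chromosome 13 they were 12.9% and 11.4%, and on chromosome 6 they were 8.85% and 4.07%. These shares were counted and not tested, and a difference in chromosome copies between the lines cannot be told apart from a change of expression here. Of the 23 X-linked members, 20 were lower in shDicer and 16 in shAgo2, with medians of -2.71 and -2.22, while 2 were higher in shDrosha.

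**Figure D4:**
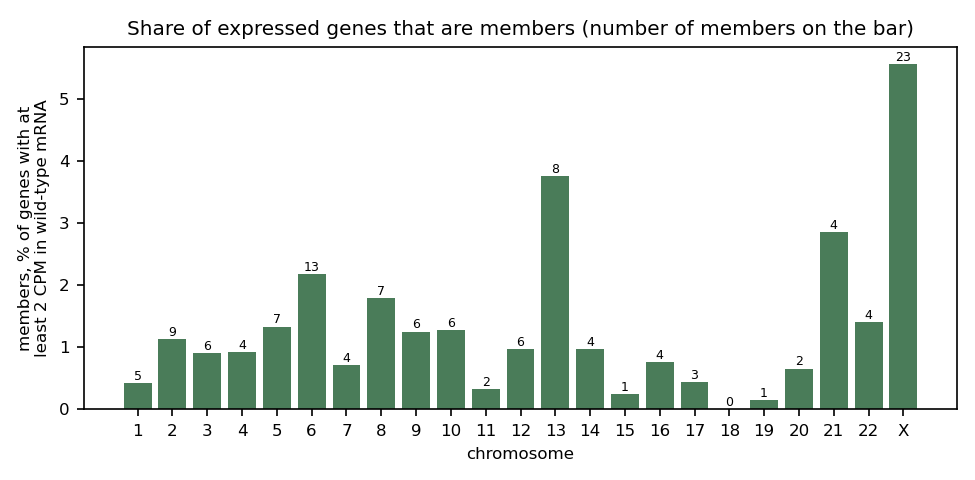
Share of the genes with at least 2 CPM in wt mRNA that are members, in % by chromosome, with the number of members on each bar. Chromosome X stands highest at 5.56% with 23 members, followed by chromosome 13 at 3.76%.

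A number of members, 34, lay within 500 kb of another member. On X, CD99 (chrX:2691187-2741309) neighboured GYG2 (chrX:2828822-2882818), a glycogenin that primes glycogen, whose chromatin RNA read 8.44 and 10.6 CPM in wt, 1.6 and 1.09 in shDicer, 0.745 and 1.27 in shAgo2 and 6.3 and 4.56 in shDrosha. Next to them lay PRKX, an X-linked protein kinase, and the lncRNA ENSG00000285756. PRKX read 47.2 and 46.8 CPM in wt, 17.4 and 15.9 in shDicer and 15.6 and 14.2 in shAgo2, and ENSG00000285756 read 207 and 203, then 49.3 and 46.9, then 45.2 and 44.6. Further in, PUDP, a phosphatase of modified nucleotides, read 11.2 and 11.3, then 3.94 and 4.32, then 3.91 and 3.46, and STS, steroid sulfatase, read 4.83 and 4, then 0.152 and 0.293, then 0.789 and 0.458. Other genes in this stretch were also lower: the median log2 fold change of the 50 nearest tested genes was -0.50 around CD99, -0.65 around PRKX and -0.41 around STS in shDicer, and -0.55, -0.74 and -0.43 in shAgo2. BEX5 and TMSB15A formed another X-linked pair, with neighbourhood medians of -0.74 and -0.85 in shDicer.

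On chromosome 13, MZT1 (chr13:72708367-72727629), a component of the microtubule-nucleating gamma-tubulin ring, and KLF5 (chr13:73054976-73077541) were both just inside the threshold. MZT1 had 193, 201 and 177 CPM of wt mRNA and 38.8, 42.3 and 41.9 in shDicer, and 10.1 and 10.5 CPM of wt chromatin RNA against 4.56 and 4.45 in shDicer and 5.38 and 4.63 in shAgo2. Their neighbourhoods had medians of -0.43 and -0.48 in shDicer. DIS3, just outside the threshold, lies in the same stretch and was lower by 1.09 and 1.04 on the log2 scale in shDicer and shAgo2 (log2 fold changes -1.09 and -1.04, adjusted p = 1.19e-06 and 1.49e-06).

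On chromosome 2, DUSP2 paired with ITPRIPL1, a single-pass membrane protein that read 29.8 and 30.3 CPM in wt, 11.3 and 9.88 in shDicer and 11.5 and 11.9 in shAgo2. GYPC paired with BIN1, and RAMP1, which escorts a calcitonin-type receptor, with ESPNL, an espin-like protein. All 6 were lower in both lines. On chromosome 22, DUXAP8, ENSG00000272872 and NBEAP3 lay together, and on chromosome 14 DUXAP9 and DUXAP10. On chromosome 8, PI15, CRISPLD1, CASC9 and HNF4G lay in a row and differed in outcome. CRISPLD1, a secreted protein with 60.8, 60.7 and 57.6 CPM of wt mRNA, was lower in chromatin at 23.9 and 23.3 CPM in wt, 7.2 and 7.19 in shDicer and 6.22 and 7.73 in shAgo2. The lncRNA CASC9 was lower by a smaller step (16.6 and 18.8, then 9.93 and 10.2, then 11.7 and 11.8), HNF4G, a nuclear receptor, was not called, and PI15 was higher in shAgo2. On chromosome 6, H3C1 lay close to H1-3, and KIAA0408 and ENSG00000255330 overlapped.

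Chromosome 6 also held PLAGL1 (chr6:143940300-144064599), a zinc-finger factor that restrains growth, and inside it the lncRNA HYMAI (chr6:144004916-144008262). Both are imprinted genes expressed from the paternal copy, from a shared start in a CpG-rich region whose maternal copy is methylated. PLAGL1 mRNA was 8.52, 9.61 and 9.5 CPM in wt and 0, 0.139 and 0.0224 in shDicer, and HYMAI was 2.81, 4.63 and 2.06 CPM and 0 in all 3 shDicer samples. PLAGL1 chromatin RNA read 26 and 25.9 CPM in wt, 1.15 and 1.3 in shDicer, 0.654 and 0.6 in shAgo2 and 28.1 and 26 in shDrosha. HYMAI read 33 and 35.2, then 0.573 and 0.831, then 0.278 and 0.365, then 37.1 and 36.4. The inducible lines thus lay more than an order of magnitude below wt and shDrosha in both genes, while the 50 nearest genes had a median of 0.09 in shDicer. HYMAI was lower by -5.64 ± 0.17 SE in shDicer and PLAGL1 by -4.42 ± 0.151 (adjusted p = 9e-10 and 1.69e-09).

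The starts of this pair and of 3 members that turned on differences above are shown, since both chromatin RNA and mRNA changed at these genes. The sequences are the 250 bases before the RefSeq start on GRCh38.p14, 5′ to 3′ on the gene's strand, and capitals mark the searched motifs on either strand (the TATA box TATAAA, the Sp1 box GGGCGG, the E-box letters CACGTG, the TEAD letters GGAATG and the AP-1 letters TGACTCA, for which the reverse complement TGAGTCA gives the same sites). They lie at chr6:144008260-144008509 (minus strand), chr11:67583562-67583811 (plus), chr2:1744516-1744765 (minus) and chr7:128830156-128830405 (plus), in this order.
HYMAI and PLAGL1: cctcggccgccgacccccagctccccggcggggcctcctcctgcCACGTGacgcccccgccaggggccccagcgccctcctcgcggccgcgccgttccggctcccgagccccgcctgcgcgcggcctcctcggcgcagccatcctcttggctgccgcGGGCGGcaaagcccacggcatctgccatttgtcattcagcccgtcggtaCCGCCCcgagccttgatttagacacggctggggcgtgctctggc
GSTP1: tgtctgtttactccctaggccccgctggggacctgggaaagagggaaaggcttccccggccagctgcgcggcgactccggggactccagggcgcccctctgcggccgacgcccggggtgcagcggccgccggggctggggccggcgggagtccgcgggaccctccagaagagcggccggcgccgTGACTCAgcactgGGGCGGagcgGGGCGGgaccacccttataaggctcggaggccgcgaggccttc
PXDN: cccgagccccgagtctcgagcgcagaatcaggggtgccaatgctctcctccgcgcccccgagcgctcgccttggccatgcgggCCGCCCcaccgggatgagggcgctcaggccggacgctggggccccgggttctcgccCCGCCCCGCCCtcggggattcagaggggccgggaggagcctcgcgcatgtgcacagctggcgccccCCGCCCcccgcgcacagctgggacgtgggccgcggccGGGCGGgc
FLNC: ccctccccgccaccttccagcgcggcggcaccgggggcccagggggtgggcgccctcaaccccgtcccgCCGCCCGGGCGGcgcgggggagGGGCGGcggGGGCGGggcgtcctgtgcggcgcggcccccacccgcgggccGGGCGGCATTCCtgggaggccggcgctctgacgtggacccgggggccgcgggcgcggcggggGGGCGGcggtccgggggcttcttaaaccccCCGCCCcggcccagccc

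These windows were rich in GC, at 75.6, 74.8, 78.4 and 85.6%, and held 32, 28, 32 and 38 CpG sites, with a ratio of observed to expected CpG of 0.936, 0.806, 0.835 and 0.831. The GSTP1 window held TGACTCA, the letters bound by AP-1 factors, and 2 copies of GGGCGG, the GC box of Sp1 factors. The HYMAI and PLAGL1 window held CACGTG, an E-box, and GGGCGG in both orientations. The PXDN window held GGGCGG 5 times over both strands, 2 of them overlapping by 1 base, and the FLNC window held it 7 times with GGAATG, the letters of TEAD factors, once on the reverse strand. RefSeq windows of 300 bases (250 before and 50 after the start) were at hand for 86 members, 129 windows in all. GGGCGG was in 55% of them and in 44.9% of all 35087 windows of 27305 genes, TATAAA in 20.9% and 11.5%, CACGTG in 9.3% and 7.25%, GGAATG in 6.2% and 14%, and TGACTCA in 3.1% and 4.94%. Median GC was 62.3% against 58.7%, and 59.7% against 48.9% of windows had an observed to expected CpG ratio of at least 0.6. Several windows can belong to 1 gene, and these shares are descriptions of letters and not of binding. The windows of all genes were not limited to genes expressed in wt, whereas every member had at least 2 CPM there. The part of expression in these differences was not tested.

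On 6p21, in the histocompatibility region, 3 members lay within 500 kb: TAP2 (chr6:32821833-32838739), which carries peptides for MHC class I, RING1 (chr6:33208500-33212722), a Polycomb ubiquitin ligase, and VPS52 (chr6:33250272-33272047), a tethering factor of the Golgi. As summed for the annotated genes, VPS52 read 9.71, 8.21 and 9.55 CPM in wt mRNA and at most 0.0836 in shDicer, and 25 and 25.4 CPM in wt chromatin against 0.972 and 1.25 in shDicer and 0.963 and 0.915 in shAgo2. RING1 was at 0 in both shAgo2 chromatin libraries, at least 31.7-fold lower than wt. TAP2 read 23.8 and 26.6 in wt chromatin, 1 and 0.375 in shDicer and 0.354 and 0.522 in shAgo2.

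The reference genome holds this region in several alternate versions beside the main one. The files also held transcripts with no gene in the annotation used here, and some of them had the same length as a main transcript of these genes, although what they are was not determined. Those added below to the shDicer and shAgo2 sums were picked for being under 1 count in every wt and shDrosha sample. They were also picked for having counts in shDicer samples. Their absence from wt and shDrosha and their presence in shDicer thus follow from the pick. They could only raise the shDicer and shAgo2 sums, and a sum is not a level of the gene. The 2960-base main transcript of VPS52 had 8.19, 7.5 and 7.61 CPM in wt mRNA and 0 in shDicer, and 2 further transcripts had identical counts. Another 2 transcripts of the same length were at 0 in wt mRNA and summed to 20.3, 16.7 and 21 CPM in shDicer. Over all 5, the counts summed to 24.6, 22.5 and 22.8 CPM in wt and 20.3, 16.7 and 21 in shDicer, and in chromatin to 14.7 and 16.7 in wt, 11.1 and 16.3 in shDicer, 11.5 and 16.8 in shAgo2 and 14.7 and 10.9 in shDrosha. Summed this way, the chromatin groups overlapped. For the 3338-base transcript that was the main one of VPS52 in chromatin the shDicer and shDrosha samples lay below wt and those of shAgo2 overlapped with it, with sums of 27.5 and 27.6 CPM in wt, 23.5 and 19.2 in shDicer, 27.9 and 27.2 in shAgo2 and 22.4 and 23.4 in shDrosha. The same sum over 6 transcripts of the length of the main one of RING1 (1752 bases) was 6.62, 8.1 and 7.1 CPM in wt mRNA and 23, 14.6 and 9.97 in shDicer mRNA, and in chromatin it was 7.44 and 7.62 in wt, 7.89 and 4.48 in shDicer, 8.1 and 6.1 in shAgo2 and 3.37 and 8.57 in shDrosha.

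For TAP2 no transcript of the same length (5684 bases) was found outside the annotation, and its copies on 7 alternate sequences differ from the reference by 2 to 289 bases. Only transcripts of exactly this length were searched, so a copy of another length would have been missed. Over 17 settings its log2 fold change ranged from -6.00 to -1.10 in shDicer and from -6.11 to -0.86 in shAgo2, and it was called lower in all 17. VPS52 is identical to the reference on 2 of 5 alternate sequences and RING1 on 3 of 5. Whether the loss of counts at the annotated VPS52, RING1 and TAP2 is a loss of their RNA was not tested. Without the 3 genes of 6p21 the median in shDicer chromatin was -2.08.

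**Figure D5:**
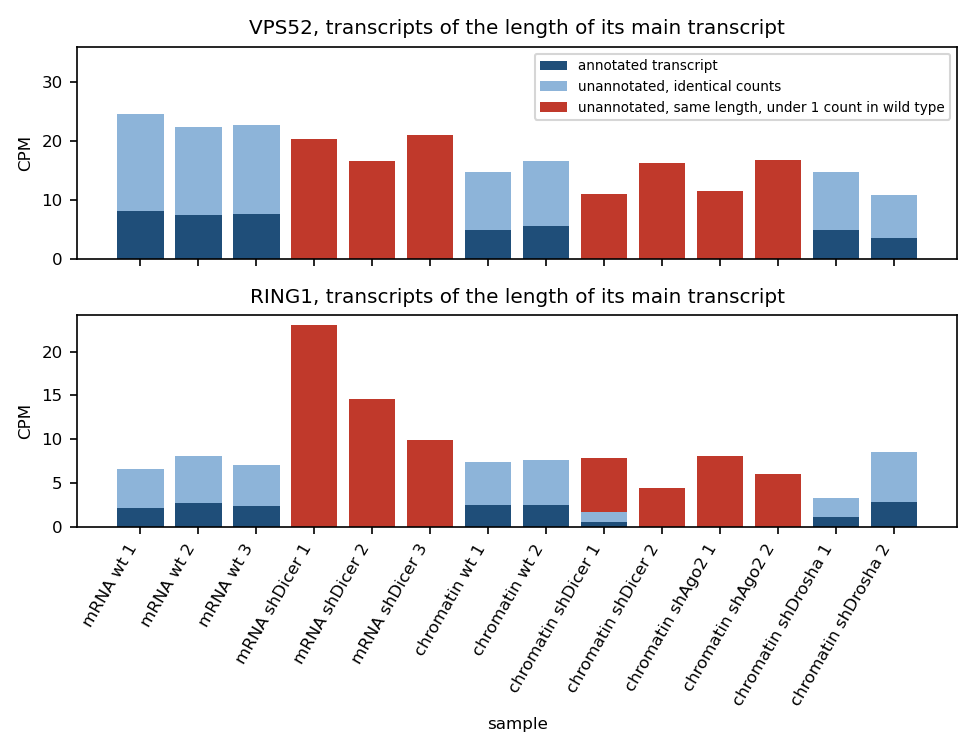
CPM in each sample of the transcripts that have the length of the main VPS52 (top) and RING1 (bottom) transcript, stacked. The annotated transcript and those with identical counts (blue) are seen mostly in wt and shDrosha samples. Other unidentified transcripts of the same length (red) are seen in shDicer and shAgo2 samples. The red ones were picked for being under 1 count in wt and shDrosha samples and for having counts in shDicer samples. Only their shAgo2 counts were no part of the pick. Sums for the VPS52 length were 22.5 to 24.6 CPM in wt mRNA and 16.7 to 21 in shDicer mRNA.

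In shDrosha chromatin, the 5 members that were lower were H3C12, BARX1, SLC7A5, ARL10 and NEFM, and the 5 that were higher were TNMD, ABCA1, SLC13A3, FENDRR and LINC00632. NEFM changed most among the former (-1.07 ± 0.124 SE, adjusted p = 0.00181). ARL10, a small GTPase, read 162 and 166 CPM in wt and 131 and 144 in shDrosha. TNMD, tenomodulin of tendon, rose from 0.439 and 0.114 CPM to 1.51 and 2.03 (2.58 ± 0.465, adjusted p = 0.0134) and was not called in shDicer or shAgo2, where it read at most 0.407 CPM. TNMD passed the low-count filter only through the shDrosha libraries, so the filter itself favours a higher value there. FENDRR, an lncRNA of lung and heart development, read 21.6 and 22.9 in wt, 30.7 and 31 in shDrosha, 6.67 and 7.18 in shDicer and 6.38 and 6.36 in shAgo2. Like ABCA1 and SLC13A3, it was higher in shDrosha and lower in the inducible lines. Whichever sample was left out, 1 of the 5 lower calls (NEFM) and 0 of the 5 higher calls remained. Over 17 settings, ABCA1 was called in 16, SLC13A3 in 14, TNMD in 11, FENDRR in 7 and LINC00632 in 6. Without wt sample 1 no member was called higher in shDrosha, and without wt sample 2 only 1 was.

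Some members stand on lists of related genes, counted here beside the shares of all genes (10.5% lower and 11% higher in shDicer, 12.1% and 12.5% in shAgo2, 2.18% and 1.2% in shDrosha). No list was tested, and a list does not hold every member of its kind. Of 13 filamin and cytoskeletal genes, 4 were lower and 2 higher in shDicer chromatin and 4 and 2 in shAgo2, with 3 lower in shDrosha, and FLNC was the only member among them. Of 28 matrix and adhesion genes, 5 were lower and 12 higher in shDicer, 7 and 10 in shAgo2, and 2 lower in shDrosha, PXDN and SPARC being members. In the CD99 family 2 of 4 were lower in each inducible line. Of 12 YAP-TEAD targets, 1 was lower and 3 higher in shDicer and 2 and 2 in shAgo2. The 14 imprinted genes tested had 3 lower and 2 higher in shDicer, 4 and 3 in shAgo2 and 1 lower in shDrosha, with PLAGL1 the member and HYMAI not on the list. Of 83 homeobox genes tested, 25 were lower and 12 higher in shDicer, 27 and 10 in shAgo2, and 9 and 1 in shDrosha, and HOXC10 was the member on that list, which does not hold BARX1 and HDX. It read 17.3 and 17 CPM in wt chromatin, 3.88 and 3.38 in shDicer and 2.63 and 2.57 in shAgo2. Lipid transfer and lipoprotein genes (9) had 2 lower and 3 higher in shDicer and 1 lower in shAgo2, which includes PLTP. Of 92 X-linked cancer-testis genes, 10 could be tested, and 1 was higher in shAgo2.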

How the data were processed

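mRNA-seq (6 samples) and chrRNA-seq (8 samples) were analysed, and 6 small RNA-seq samples were not analysed here. The authors quantified reads with kallisto in its reverse-stranded mode on Ensembl release 89 cDNA and ncRNA, and deposited estimated counts and TPM per transcript. Estimated counts were summed per gene through GENCODE release 44 and rounded for tests, and 23385 transcripts with no gene there were left out. CPM used the file total. TPM served as an alternative only. Coordinates are those of GENCODE on GRCh38, the build that the submitters' processing notes name as hg38. The labels gave the groups.

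All 8 chromatin samples were fitted together with the quasi-likelihood test of edgeR 4.0.16 (R 4.3.3, TMM, filterByExpr defaults, Benjamini-Hochberg over 32874 genes). Thresholds were an adjusted p of 0.005 for shDicer, shAgo2 and contrasts between knockdowns, and 0.05 for shDrosha. Those against wt follow the study's methods, and that between knockdowns was chosen here. The scripts were tested on simulated data. DESeq2 1.42.0 and other settings were alternatives. Transcripts of the 6p21 genes were aligned to alternate sequences with minimap2 2.31-r1302. Sharing was counted over subsequences of 31 bases.

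The members, gene lists and motifs were chosen with earlier results of these data known. Named genes were the 30 members with the most wt mRNA counts, the 5 lowest and 5 highest in shDicer chromatin, members within 500 kb of another and the 5 nearest the threshold on either side. Genes on the lists of filamin and cytoskeleton, matrix and adhesion, CD99 family, YAP-TEAD targets, X-linked cancer-testis, imprinted, homeobox and lipid transfer genes were counted. Intervals and floors (3 counts) cover counting error only.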

Additional observations from a re-analysis of the deposited data

Results flagged for a closer look

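The difference between the inducible lines passed the edgeR test and exceeded 1 on the log2 scale in 18 members, as shDicer minus shAgo2 chromatin RNA with 2 samples in each group. It was -4.00 for PXDN, -2.99 for HAND1, -2.53 for FLNC, -2.50 for ENSG00000269902, -2.29 for KIAA0408, -2.23 for NAP1L2, -2.04 for BCHE and -2.01 for GSTP1. It was -1.88 for ENSG00000250874, -1.84 for LIN7A, -1.67 for ENSG00000272872, -1.57 for FUOM, -1.50 for SLC8A1, -1.15 for GALNT13, -1.11 for DUXAP9, -1.10 for TRIM71 and -1.09 for DUXAP10. NEFM alone among them had a positive value, 1.42. Of all genes tested, 1.34% were lower and 1.37% higher in shDicer than in shAgo2, with no limit on the fold change. In 15 of the 18 the shDicer level was below wt at the threshold, and in BCHE, LIN7A and SLC8A1 it was shAgo2 that stood highest of all groups. The shAgo2 mean was also the highest in KIAA0408 and GALNT13, where the shAgo2 samples lay between the shDrosha samples.

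A total of 108 members differed between shDicer and shDrosha chromatin RNA by the direct test, 107 lower and 1 higher in shDicer. Of all genes tested, 9.51% were lower and 11% were higher.

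In data outside the main measurement, transcripts with no gene in the annotation and of the same length as the main VPS52 transcript had a mean sum of 19.3 CPM in shDicer mRNA. Those of the length of the main RING1 transcript had a mean sum of 15.9 CPM. Both sets were picked for being under 1 count in wt and shDrosha samples and for having counts in shDicer samples. Their presence in shDicer thus follows from the pick.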

How the results depend on the processing

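Of 258 pairs of a summary result and an alternative, 205 kept their direction and moved little, meaning a count within 1.5 times or a median within 1 SD between replicates of the knockdown (0.00638 in shDicer, 0.0553 in shAgo2 and 0.0591 in shDrosha). The rule gave 85 members at a minimum of 5 CPM, and 87 with TPM in place of CPM, of which 69 were among the 129. Members higher in shDicer were 4 at an adjusted p under 0.05 and 1 with DESeq2, with counts scaled from TPM or with unmatched transcripts kept. The shDicer median, -2.11, was -2.07 with library size only, -2.11 with no filter, -2.26 with counts scaled from TPM, -2.10 with unmatched transcripts kept and -2.01 with the neighbourhood median as offset. In alternatives added after seeing the data, it was -2.08 without the 6p21 genes, -1.99 without members that share most of their sequence and -1.94 without neighbouring members. The shAgo2 median, -1.80, was -1.59 with the neighbourhood offset and -1.73 without neighbouring members. Members lower in shDrosha were 1 and higher 2 at an absolute log2 fold change above 1, 3 and 2 with DESeq2, 3 and 2 with counts scaled from TPM, and 2 and 1 with unmatched transcripts kept, while 10 were lower with no filter. Members that differed between shDicer and shAgo2 were 38 at an adjusted p under 0.05 and 11 with unmatched transcripts kept. The causes were not tested. With the replicate number as a block, 105 members were lower in shDicer, 96 in shAgo2 and 3 in shDrosha, where 3 were higher. Correlations of same-numbered deviations ran from -0.131 to 0.0279, so the samples share only a number. Without 1 sample at a time, where the lone sample was assumed to vary like the others, lower members ranged from 93 to 108 in shDicer, 84 to 98 in shAgo2 and 1 to 10 in shDrosha, and higher ones from 1 to 2, 4 to 4 and 0 to 5. The medians ranged from -2.15 to -2.04, -1.86 to -1.73 and -0.06 to -0.02. Differing members ranged from 10 to 27 between shDicer and shAgo2 (10 without either shAgo2 sample), 103 to 108 between shDicer and shDrosha and 85 to 103 between shAgo2 and shDrosha, and the rule gave 131 to 143 members. Of named genes, 3727 of 3889 pairs kept their call, 122 lost it, 40 gained it and 0 reversed. Depth limited members under the floor of 3 counts.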
